A study of Lachancea kluyveri with 9 samples.

Results

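RNA levels in alpha cells of the budding yeast Lachancea kluyveri were set against those in a/alpha cells, with 3 libraries of each cell type. These are 6 of the 9 libraries in the series, and were taken by their sample titles and column headers. The alpha cells were strain yLB77 and the a/alpha cells strain FDy22, both labelled WT/prototroph. The third cell type, a cells of strain yLB76 with the same genotype label, is shown only beside single models and enters the estimate of the spread. All cultures were grown from a single colony at 30 °C in YPED medium. Poly(A) RNA was taken at an optical density between 0.5 and 1, and the replicates are biological per the column headers. Each cell type was 1 strain, so strain and cell type cannot be told apart, and p-values measure the spread between cultures of 1 strain.

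Alpha cells are a haploid mating type, and a/alpha cells carry the mating-type alleles of both haploid types. In budding yeasts such as Saccharomyces cerevisiae, alpha cells secrete a small peptide pheromone made from a precursor protein, and carry a receptor for the pheromone of a cells. In a/alpha cells a heterodimer of the mating-type proteins represses haploid-specific genes, and alpha-specific genes lack their activator. The series concerns haploid-specific genes. Nothing pairs the model identifiers with gene names, so models are given by position, in the coordinates of the deposited table, and their products are not named. The labelled cell types therefore could not be checked against mating-type genes.

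Library totals were 6929356, 7921388 and 8675311 counts in alpha replicates 1, 2 and 3, and 743244, 10776548 and 9164901 in a/alpha replicates 1, 2 and 3. Levels are given in CPM, the counts of a model scaled to a common library size with TMM factors. In a/alpha replicate 1, the shallow library, 3 counts are 4.12 CPM, and in the other 5 libraries they are at most 0.453 CPM. Such limits cover counting error only. Across models, log2 CPM of alpha library pairs correlated by 0.974 to 0.989 and that of a/alpha pairs by 0.957 to 0.991. These are shares of each library, and fewer transcribing cells cannot be told apart from less RNA per cell.

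The comparison asks how RNA levels of alpha cells differ from those of a/alpha cells. A total of 517 of 5042 tested models passed edgeR's quasi-likelihood test at an adjusted p of 0.05, which is 10.3% of models. Levels were higher in alpha cells for 330 models (6.55%) and lower for 187 (3.71%). With upper-quartile scaling the split was 268 higher and 290 lower. With a trend on coding length removed from each library, it was 257 higher and 256 lower. The median log2 fold change over all tested models was 0.01. The total was 1172 without a replicate 1, a library of the third cell type that enters the shared spread, and 983 without alpha replicate 1. Without alpha replicate 2 it was 218 and without alpha replicate 3 it was 196. Leaving out a/alpha replicate 2 gave 152 and leaving out a/alpha replicate 3 gave 182. A fit of these 6 libraries alone called 920 models and DESeq2 called 831.

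Most called differences were small. The median called fold was 1.92 among higher and 1.91 among lower models, and 184 of the 330 and 101 of the 187 changed less than 2-fold. The smallest called folds were 1.41 in each direction. Changes of at least 2-fold were called for 146 higher models (2.9% of those tested) and 86 lower models (1.71%). With upper-quartile scaling these were 113 higher and 111 lower, and with the length trend removed 98 and 96. The 146 became 228 without alpha replicate 1, 93 without alpha replicate 3 and 84 without a/alpha replicate 2. The 86 became 166, 54 and 50 when alpha replicates 1, 2 and 3 were left out in turn. Leaving out a/alpha replicate 2 gave 53 and leaving out a/alpha replicate 3 gave 56.

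The tail of large differences lay on the higher side. A total of 41 models were at least 4-fold higher in alpha cells and 14 at least 4-fold lower, and 16 and 1 of them at least 16-fold. Of the 41 models, between 36 and 41 were still called when each of the 9 libraries was left out in turn. Of the 14 models, between 12 and 14 were. Of all 517 called models, between 0 (without a replicate 1) and 366 (without a/alpha replicate 2) lost their call in 1 such fit. In each of those 9 fits, 134 of the 517 (86 higher and 48 lower) were called. Of these 134, 80 higher and 42 lower models changed at least 2-fold. The 41 and 14 models were chosen by fold in the main fit, so their counts only describe them. Groups did not overlap in 316 of the 330 higher and 181 of the 187 lower models. All 3 alpha libraries lay above all 3 a/alpha libraries in 17.8% of tested models, and below them in 15.5%.

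**Figure D1:**
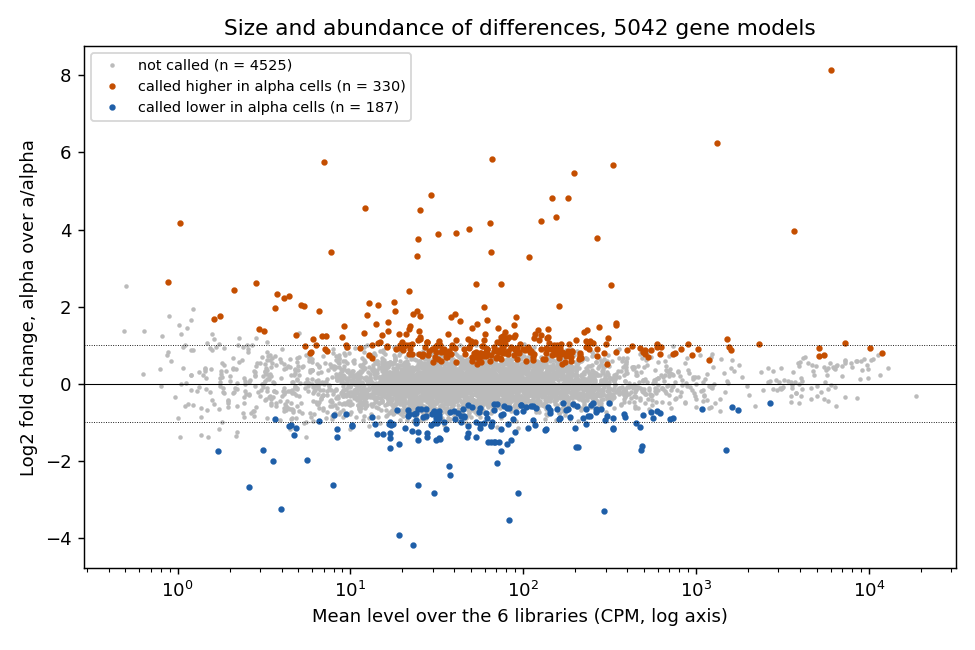
Mean level over the 6 libraries (horizontal, CPM, log axis) against the log2 fold change of alpha over a/alpha cells (vertical) for 5042 models. Orange and blue points are the 330 models called higher and the 187 called lower, grey points passed no test, and dotted lines mark 2-fold. Called models occur at every level, and the largest changes lie on the higher side.

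The largest rise was in a short plus-strand model of 375 bp on chromosome A from 472961 to 473335 (augustus_masked-SAKL0A-processed-gene-4.25). In order of replicate, the alpha libraries stood at 9002, 11894 and 15236 CPM and the a/alpha libraries at 23.3, 81.1 and 13.5 CPM. The groups lie far apart, and a/alpha replicate 2 is the highest of its group. The log2 fold change was 8.15 ± 0.61 (SE), with an adjusted p of 1.98e-06 by edgeR's quasi-likelihood test, and 9.56 without a/alpha replicate 2. The authors' deposited table gives a log2 fold change of 8.23 for it. In a cells it lay between 11.9 and 14.5 CPM, close to the lowest a/alpha libraries.

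Next came augustus_masked-SAKL0G-processed-gene-10.110, a plus-strand model between 1048341 and 1050398 on chromosome G. It was at 3134, 2487 and 2185 CPM in alpha libraries. In a/alpha libraries it had 19, 545 and 199 counts and a mean level of 32.8 ± 15.9 CPM (SD, n = 3), and a/alpha replicate 2 was again the highest of its group. This was a log2 fold change of 6.24 ± 0.34 (edgeR, adjusted p = 1.45e-07), or 6.84 without that library. The next model along the chromosome on the same strand, from 1050736 to 1052271, fell. It was at 11.2, 17.4 and 8.97 CPM in alpha and at 48.0, 70.0 and 71.0 CPM in a/alpha libraries, a log2 fold change of -2.38 ± 0.26 (edgeR, adjusted p = 7.53e-05). In a cells it lay between 44.9 and 69.8 CPM, so the alpha libraries were the lowest of the 9.

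The minus-strand chromosome G model from 1653751 to 1655106 had the smallest adjusted p of the comparison. It was at 117, 123 and 150 CPM in alpha and at 1.37, 2.62 and 2.04 CPM in a/alpha libraries, where these were 1, 28 and 19 counts. Its log2 fold change was 5.82 ± 0.23 (edgeR, adjusted p = 1.51e-08). In a cells it lay between 128 and 156 CPM, within about the range of the alpha libraries. The minus-strand chromosome C model from 475936 to 477402 behaved differently in a cells, where it lay between 1.74 and 4.61 CPM. It was at 497, 345 and 312 CPM in alpha and at 2.74, 14.1 and 4.40 CPM in a/alpha libraries. This was a log2 fold change of 5.47 ± 0.45 (edgeR, adjusted p = 4.85e-06), or 6.52 without a/alpha replicate 2, again the highest of its group.

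An overlapping pair on chromosome E rose together. The minus-strand model from 389294 to 389977 was at 572, 701 and 690 CPM in alpha and at 6.86, 13.1 and 14.4 CPM in a/alpha libraries. The plus-strand model from 388024 to 389459 was at 329, 387 and 342 CPM in alpha and at 2.74, 14.3 and 13.4 CPM in a/alpha libraries. Since they share bases on opposite strands, the counts of each are uncertain. In a cells they lay between 37.3 and 66.2 CPM and between 32.9 and 59.4 CPM, between the alpha and the a/alpha levels.

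Other leading models overlapped between alpha and a cells. On chromosome H, the model between 1736625 and 1737671 was at 244, 247 and 232 CPM in alpha and at 13.7, 10.1 and 15.4 CPM in a/alpha libraries, and it lay between 243 and 306 CPM in a cells. On chromosome B, neighbouring minus-strand models from 410581 to 411792 and from 412711 to 413379 rose together, by log2 fold changes of 4.82 ± 0.29 and 4.32 ± 0.22. The second stood at 254, 307 and 323 CPM in alpha and at 9.61, 15.8 and 15.2 CPM in a/alpha libraries. These models kept their calls in each of the 9 fits without a library.

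Another chromosome H model, between 1844663 and 1844956, was far higher in a cells. It was at 38.5, 60.5 and 71.9 CPM in alpha and at 1.37, 1.03 and 2.90 CPM in a/alpha libraries. In a cells it lay between 2654 and 4543 CPM, above every alpha and a/alpha library. Its log2 fold change over a/alpha cells was 4.90 ± 0.41 (edgeR, adjusted p = 5.15e-06), and 5.73 without a/alpha replicate 3.

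The leading 15 also hold models with very few reads in a/alpha cells. The chromosome C model from 541385 to 541675 had 158, 65 and 61 counts in alpha and 0, 4 and 1 counts in a/alpha libraries, and overlaps a model on the opposite strand. Its fitted log2 fold change of 5.76 was 6.89 without a/alpha replicate 2 and 5.13 without alpha replicate 1. The chromosome H model from 26993 to 27969 had 5, 16 and 21 counts in alpha and 0, 1 and 1 counts in a/alpha libraries. It lost its call without a/alpha replicate 2. The chromosome D model from 991105 to 992754, chosen after its values were seen, lies at the other extreme. It was at 7369, 7526 and 5923 CPM in alpha and at 217, 622 and 468 CPM in a/alpha libraries.

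Among models that fell in alpha cells, the first by fold were a minus-strand chromosome A model from 930346 to 931182 and the plus-strand model inside it from 930830 to 931132. The first was at 3.17, 2.85 and 1.14 CPM in alpha and at 45.3, 41.1 and 44.1 CPM in a/alpha libraries, and the second at 2.72, 2.70 and 1.42 against 43.9, 31.0 and 33.5 CPM. The groups do not overlap, but the models share bases, so the counts of each are uncertain. They open the longest run of neighbouring models called in the same direction, 4 lower models up to position 935423. The third of the run, from 932882 to 933841, had a log2 fold change of -1.75 ± 0.29. The fourth, from 934819 to 935423, had one of -1.37 ± 0.28 and lost its call without alpha replicates 2 or 3 and without a/alpha replicates 2 or 3.

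Apart from that pair, the strongest fall was in a plus-strand chromosome C model from 350495 to 351358 (augustus_masked-SAKL0C-processed-gene-3.17). It was at 13.7, 14.7 and 12.0 CPM in alpha and at 118, 188 and 152 CPM in a/alpha libraries. Its log2 fold change was -3.53 ± 0.25 (edgeR, adjusted p = 1.30e-06). The most abundant of the 15 was augustus_masked-SAKL0C-processed-gene-0.20, a minus-strand model between 24781 and 28587 on chromosome C. It was at 47.2, 74.3 and 41.5 CPM in alpha and at 592, 463 and 553 CPM in a/alpha libraries, a log2 fold change of -3.30 ± 0.27. It lay between 35.5 and 69.3 CPM in a cells, which overlaps the alpha range.

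Other falls differed in how a cells stood. A chromosome C model between 513161 and 513481 was at 23.5, 22.6 and 23.5 CPM in alpha and at 140, 188 and 164 CPM in a/alpha libraries. In a cells it was lower still, between 5.56 and 11.0 CPM. On chromosome F, the model between 674447 and 674935 was at 16.0, 31.3 and 37.9 CPM in alpha and at 54.9, 104 and 181 CPM in a/alpha libraries. In a cells it lay between 98.9 and 166 CPM, within the a/alpha range. The chromosome G model from 1007037 to 1009616 spread widely in a/alpha cells, at 97.4, 25.4 and 62.5 CPM, against 13.3, 12.2 and 12.7 CPM in alpha cells.

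Near a chromosome end, the chromosome G model from 4170 to 11697 was at 0.453, 0.996 and 0.570 CPM in alpha and at 9.61, 5.90 and 6.44 CPM in a/alpha libraries. Another, on chromosome C between 1248964 and 1249908, was at 0.151, 0.712 and 0.427 CPM in alpha and at 9.61, 1.87 and 2.79 CPM in a/alpha libraries. In the shallow a/alpha replicate 1 each of these values of 9.61 CPM is 7 counts. The chromosome C model lost its call without a/alpha replicate 3 and without alpha replicates 2 or 3, and the chromosome G model kept its call in each of the 9 fits. Of the 30 leading models, 27 kept their direction and call in each alternative that tested them.

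**Figure D2:**
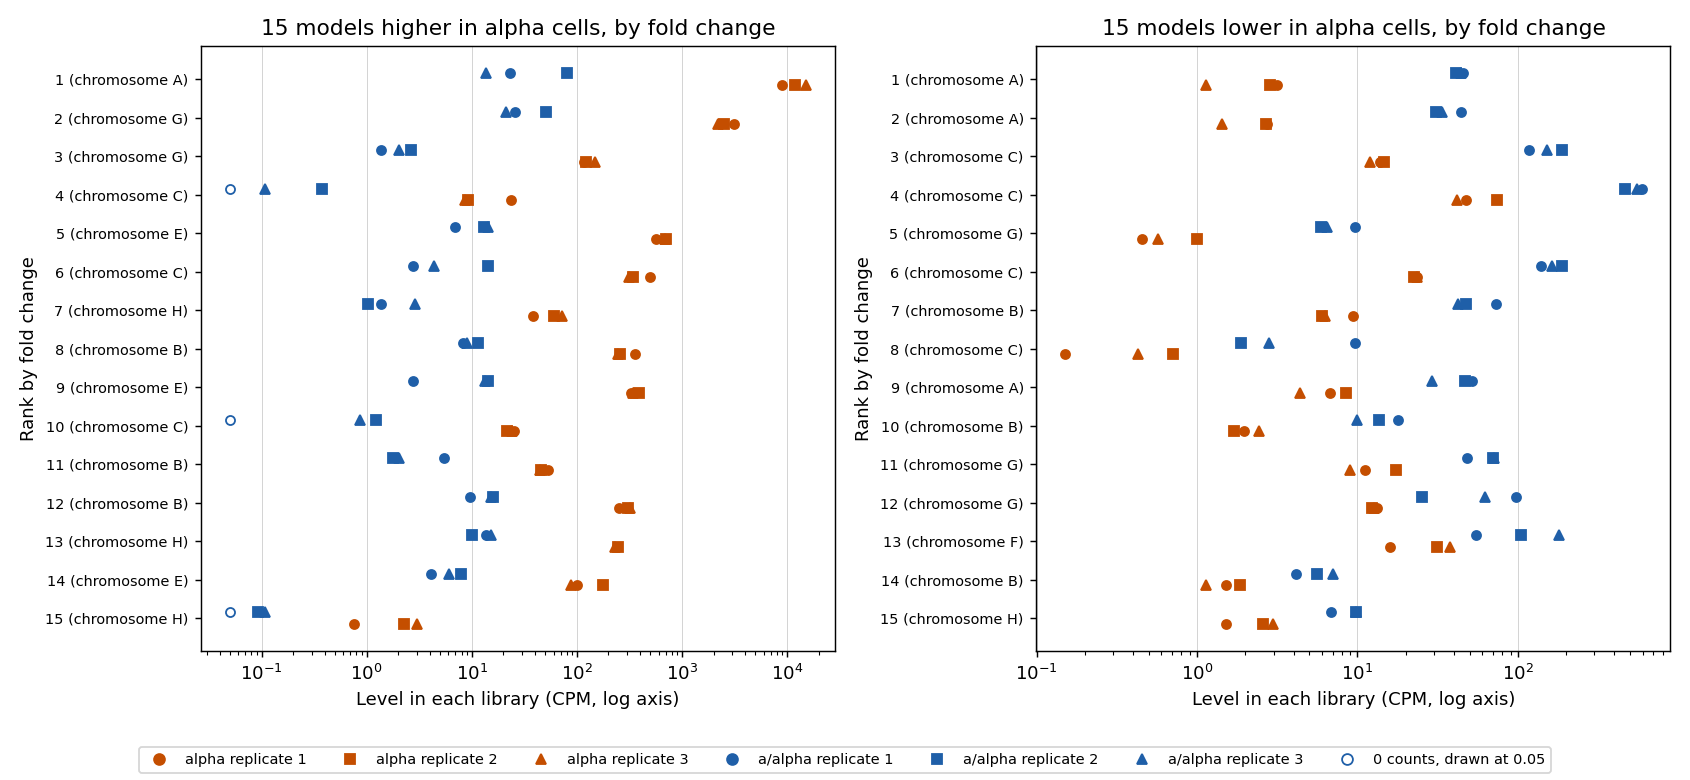
Level in each library (horizontal, CPM, log axis) of the 15 models with the largest fold change in each direction, ranked from the top, with their chromosome. Orange marks are alpha and blue marks a/alpha libraries, shapes give the replicate, and open circles are 0 counts drawn at 0.05. No model shows overlapping groups, which the choice of models required, and a/alpha replicate 1 is at 0 in 3 of the higher models.

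The shallow library touched the low levels most. In a/alpha replicate 1, 63 of the 5042 tested models had 0 counts and 282 had at most 3, against 0 models with 0 counts in a/alpha replicates 2 and 3. Among called models, at most 3 counts were found in 32 of the 330 higher and 3 of the 187 lower models. The median count there was 33 in higher and 53 in lower models. In a/alpha cells the median level was 43.9 CPM in higher and 77.5 CPM in lower models. Over the 6 libraries it was 68.9 and 56.4 CPM. The calls were made in part on the counts of this library, so these values only describe the called models.

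With 1 CPM added, the log2 ratio of the shallow library to the mean of a/alpha replicates 2 and 3 had an SD across models of 0.87 under 10 CPM. It was 0.48 between 10 and 100 CPM, 0.36 between 100 and 1000 CPM, and 0.31 at 1000 CPM or more. The same SD for replicate 2 over replicate 3 was 0.37, 0.23, 0.22 and 0.30 in these classes. The shallow library thus scattered more than the others below 1000 CPM. The ratio's medians lay between -0.05 and 0.07, which the scaling of each library largely fixes.

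**Figure D3:**
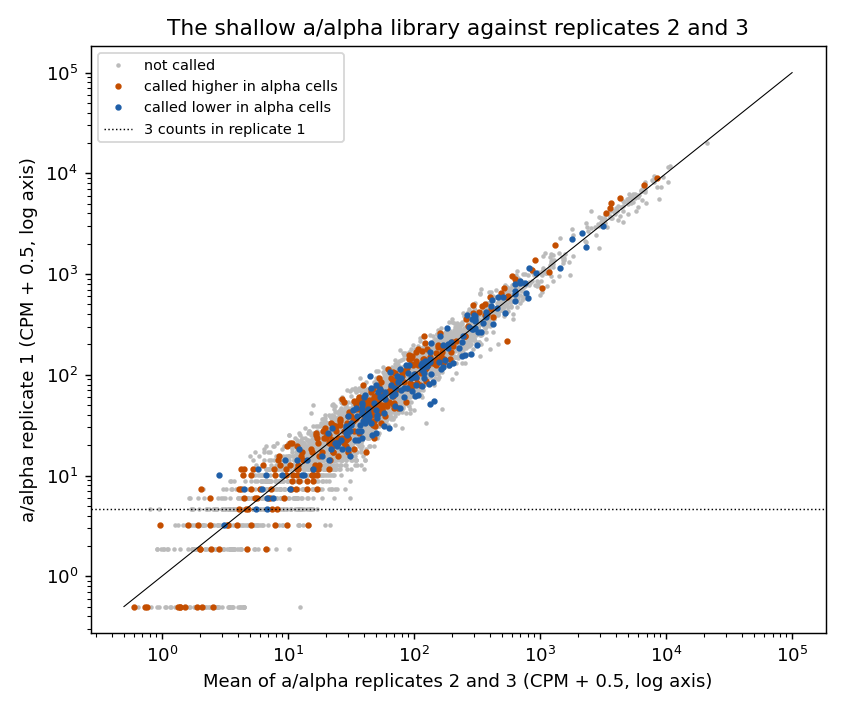
Level of each of 5042 models in a/alpha replicate 1 (vertical) against the mean of a/alpha replicates 2 and 3 (horizontal), in CPM with 0.5 added, on log axes. Orange and blue points are models called higher and lower in alpha cells, the line marks equal levels, and the dotted line marks 3 counts in replicate 1. Points spread widely around and below the dotted line, where 282 models have at most 3 counts.

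Without a/alpha replicate 1, 501 models were called, 319 higher and 182 lower. Of these, 259 higher and 142 lower models were shared with the 517, while 116 of the 517 were lost and 100 others were gained. At least 2-fold changes were then called for 172 higher and 85 lower models. The total count thus depended less on this library than on a/alpha replicates 2 or 3, although 116 single calls were lost.

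Calls were made at every level, counted by the mean over the 6 libraries. Under 10 CPM, 48 of 484 models (9.92%) were called, and from 10 to 100 CPM 289 of 3160 (9.15%). From 100 to 1000 CPM it was 160 of 1252 (12.8%), and at 1000 CPM or more 20 of 146 (13.7%), against 10.3% of all models. The median standard error was 0.35 in the lowest class and 0.18 to 0.20 in the others. Without 1 library these counts ran from 12 to 77, from 88 to 703, from 48 to 342 and from 4 to 51. The lowest were without a/alpha replicate 2 (the last also without a/alpha replicate 3). The highest were without a replicate 1, and in the last class without alpha replicate 1. The shares also moved with coding length. Among models under 400 bp, 13.3%, 24.4%, 35.3% and 30.3% were called, in order of rising level. When only models of 400 bp or more were fitted, 34 of 401, 240 of 2996, 109 of 1136 and 8 of 113 were called in that order.

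Of the 20 called models at 1000 CPM or more, 13 changed less than 2-fold and 3 at least 4-fold. The 3 are the chromosome A, D and G models from 472961, 991105 and 1048341 described above, which kept their calls in each of the 9 fits without a library. The other models named for their level each lost the call in at least 1 of these fits. The minus-strand chromosome G model from 471122 to 471903, at 408 bp, was at 11088, 13886 and 20087 CPM in alpha and at 9015, 8649 and 8437 CPM in a/alpha libraries. Its log2 fold change was 0.79 ± 0.23 (edgeR, adjusted p = 0.0470), and of the 9 fits without a library it passed in those without a replicate 1 or alpha replicate 1. A chromosome H model between 402215 and 402877 was at 9741, 12746 and 17095 CPM against 7713, 6343 and 6949 CPM, and the chromosome A model from 699515 to 699733 at 6583, 9332 and 13527 CPM against 5667, 4198 and 4367 CPM. In all 3 models alpha replicate 3 was the highest library. Both of the latter lost their calls without alpha replicates 2 or 3 and without a/alpha replicates 2 or 3.

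Among abundant lower models, the chromosome A model from 296218 to 298335 was at 2185, 2293 and 2166 CPM in alpha and at 3009, 3002 and 3344 CPM in a/alpha libraries. Its log2 fold change of -0.49 ± 0.15 (edgeR, adjusted p = 0.0498) passed without a replicate 1 and in none of the other 8 fits without a library. The chromosome C model from 116567 to 117931 changed more, from 2571, 2081 and 2222 CPM in a/alpha to 1036, 560 and 496 CPM in alpha libraries. Its log2 fold change was -1.72 ± 0.34 (edgeR, adjusted p = 0.00749), and its call was lost without alpha replicate 2.

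Called models took different shares of the RNA. The 330 higher models held 12.2% ± 1.53 of the counts of alpha libraries and 6.16% ± 0.55 of those of a/alpha libraries (SD, n = 3 each). The 187 lower models held 1.80% ± 0.31 and 3.78% ± 0.046. These models were chosen on the same counts, so the shares only describe them.

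Coding length moved with the direction of the calls. Of 396 models under 400 bp, 97 were higher in alpha cells and 5 lower, or 24.5% and 1.26%, against 6.55% and 3.71% of all models. From 400 to under 800 bp it was 90 higher and 16 lower of 937 models, from 800 to under 1600 bp 90 and 103 of 1873, and at 1600 bp or more 53 and 63 of 1836. The median log2 fold change was 0.49, 0.23, -0.04 and -0.10 in these 4 classes. The 97 higher short models became 173 without a replicate 1. They became 164, 40 and 28 when alpha replicates 1, 2 and 3 were left out in turn, 20 without a/alpha replicate 2 and 26 without a/alpha replicate 3. With the length trend removed from each library, 30 short models were higher and 23 lower.

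The short models also differed between libraries of 1 cell type. Relative to the mean of the 6 libraries, their median log2 level was 0.02, 0.20 and 0.56 in alpha replicates 1, 2 and 3, and -0.11, -0.36 and -0.19 in a/alpha replicates 1, 2 and 3. The groups do not overlap, but alpha replicate 1 lay nearer to a/alpha replicate 1 than to alpha replicate 3. The alpha mean was 0.26 ± 0.28 and the a/alpha mean -0.22 ± 0.13 (SD, n = 3 each), a difference of 0.48. The exact two-sided permutation test gave p = 0.1, the smallest that 3 against 3 libraries allow. Adjusted over 3 tests, of short models, the first 1 Mb of chromosome C and chromosome ends, it was 0.15. Short models were chosen after seeing the data, and tests of other sets were not part of this adjustment. The difference was 0.57 for the 33 short models at 1000 CPM or more and 0.46 for the 363 less abundant ones. Whether RNA or library handling had a part in this was not tested.

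**Figure D4:**
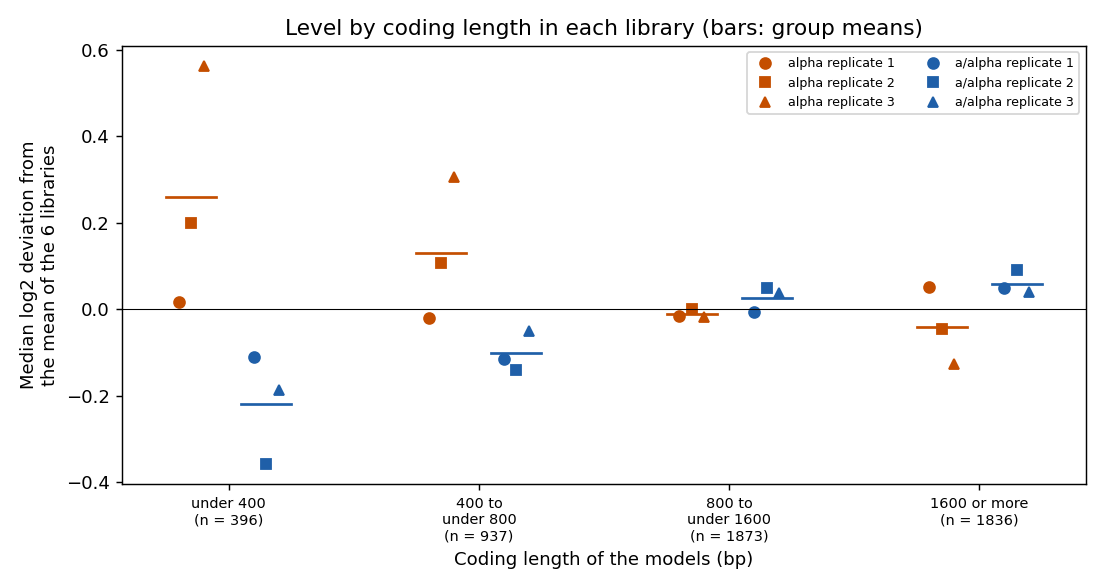
Median log2 deviation of models from the mean of the 6 libraries (vertical) in 4 classes of coding length (horizontal, bp). Each mark is 1 library, orange for alpha and blue for a/alpha cells, with group means as bars. Short models lie highest in alpha replicate 3 (0.56) and lowest in a/alpha replicate 2 (-0.36). The class from 800 to under 1600 bp runs from -0.02 to 0.05. Models of 1600 bp or more run from -0.13 (alpha replicate 3) to 0.09 (a/alpha replicate 2).

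Of the 41 models at least 4-fold higher, 10 (24.4%) are under 400 bp, against 7.85% of all tested models, and 2 of the 14 at least 4-fold lower are. The other 31 of the 41 have 400 bp or more and were called when only such models were fitted, and all 41 were called with the length trend removed. All 14 at least 4-fold lower models were called there too. The chromosome A model from 472961 to 473335 then had a log2 fold change of 7.68 in place of 8.15. The abundant chromosome G model from 471122 to 471903 had 0.39 in place of 0.79, with an adjusted p of 0.12 (edgeR). The chromosome H model from 402215 (coding length 315 bp) had 0.44 in place of 0.91 (edgeR, adjusted p = 0.079). The chromosome A model from 699515 (219 bp) had 0.47 in place of 1.05 (edgeR, adjusted p = 0.11). Another model named for its level, on chromosome H from 1993617 to 1995278 (1395 bp), kept its call at 0.79 in place of 0.75.

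By position, the first 1 Mb of chromosome C stood apart, a region set with earlier results of these data known. In the published L. kluyveri genome this stretch has a raised GC content. Its 449 tested models had a median log2 fold change of -0.52, against 0.05 for the 109 models in the rest of chromosome C and 0.03 for the other chromosomes. Of the 449 models, 35 were called lower (7.80% against 3.71% of all models) and 18 higher (4.01% against 6.55%). In windows of 100 kb with at least 20 tested models, the 10 windows of this region had medians from -0.64 to -0.17. The 102 other windows had medians from -0.16 to 0.22. Of 5 windows with fewer models, all outside this region, the one on chromosome A from 900001 to 1000000 had a median of -0.50 over 18 models, 6 of them called lower and 0 higher. The one on chromosome H from 2300001 to 2400000 had a median of 0.50 over 5 models, 1 of them called higher and 0 lower. The remaining small windows had medians from -0.18 to 0.02.

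In order of replicate, the median log2 deviation of this region was 0.10, -0.40 and -0.46 in alpha libraries and 0.34, 0.27 and 0.17 in a/alpha libraries. The groups do not overlap, and alpha replicate 1 lies closer to a/alpha replicate 3 than to the other alpha libraries. The alpha mean was -0.25 ± 0.31 and the a/alpha mean 0.26 ± 0.087 (SD, n = 3 each), a difference of -0.51. The exact two-sided permutation test gave p = 0.1, the smallest possible, and 0.15 adjusted over the same 3 tests. The 35 lower calls became 181 without a replicate 1. They became 111, 6 and 8 when alpha replicates 1, 2 and 3 were left out in turn, 7 without a/alpha replicate 2 and 11 without a/alpha replicate 3. The 18 higher calls became 9 without a/alpha replicate 2 and 10 without a/alpha replicate 3. The part of GC content or of library differences in this was not tested.

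**Figure D5:**
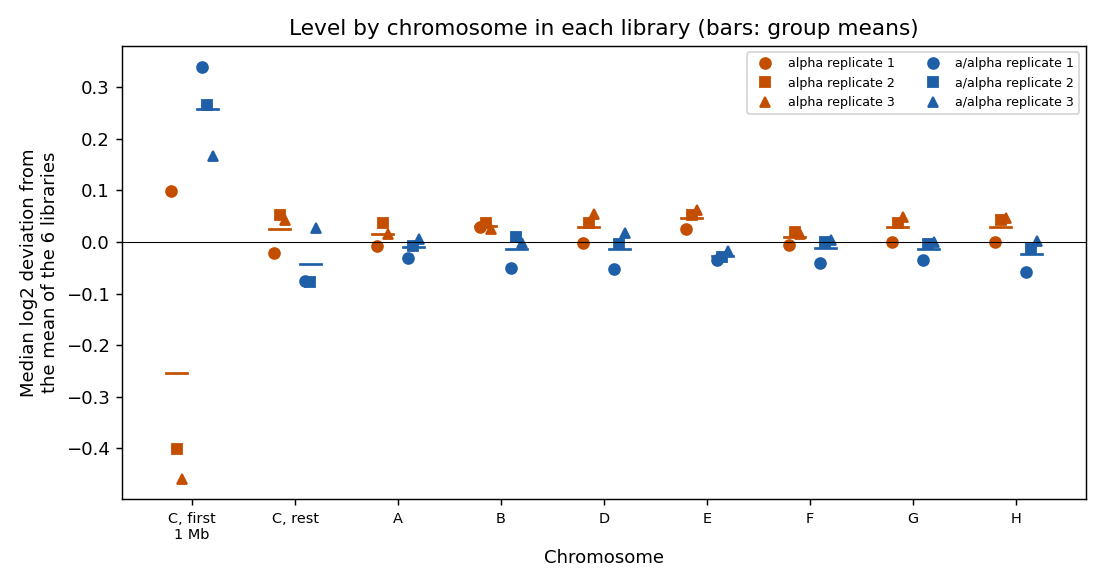
Median log2 deviation of models from the mean of the 6 libraries (vertical) by chromosome (horizontal), with chromosome C divided into its first 1 Mb and the rest. Each mark is 1 library, orange for alpha and blue for a/alpha cells, with group means as bars. The first 1 Mb of chromosome C runs from -0.46 (alpha replicate 3) to 0.34 (a/alpha replicate 1), while other chromosomes stay close to 0.

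The other 7 chromosomes differed little. Their median log2 fold changes lay between 0.02 and 0.05, and between 8.20% (chromosome D) and 11.5% (chromosome A) of their models were called, against 10.3% overall. Within 50 kb of the first or last model of a chromosome, 34 of 271 models (12.5%) were called. Of these, 15 were higher (5.54% against 6.55% of all models) and 19 lower (7.01% against 3.71%). The 34 became 61 without a replicate 1, and 19 and 21 when alpha replicates 2 and 3 were left out in turn. They became 14 without a/alpha replicate 2 and 17 without a/alpha replicate 3. The median level of these end models differed by -0.012 (log2, alpha minus a/alpha; exact two-sided permutation test, p = 0.8, n = 3 per group). The sign turned without a/alpha replicate 2 (0.011) or a/alpha replicate 3 (0.020), and it was 0.016 for the 233 end models outside chromosome C (exact permutation test, p = 0.9, n = 3 per group). For the 90 models within 20 kb it was -0.11, with every alpha library below every a/alpha library (exact permutation test, p = 0.1, the smallest possible, n = 3 per group). These 2 p-values were not adjusted.

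Along the chromosomes, 12.2% of the tested neighbours of higher models were themselves higher, against 6.55% of all tested models. For lower models it was 8.13% against 3.71%, and no test was made of these shares. Of the 330 higher models, 255 had no tested neighbour called in the same direction, and of the 187 lower models 159 had none. There were 5 runs of 3 higher models and the 1 run of 4 lower models on chromosome A. Of the runs of 3, the one with the largest median change lay on chromosome C from 226825 to 230997, where log2 fold changes were between 1.35 and 4.55, and 2 of its 3 models overlap on opposite strands. The second of these by median change lay on chromosome A from 628854 to 631852, with log2 fold changes between 0.97 and 2.58. Its last model, from 631418 to 631852, was at 115, 131 and 135 CPM in alpha and at 24.7, 21.2 and 20.2 CPM in a/alpha libraries, and between 13.8 and 16.0 CPM in a cells. Of 80 neighbouring pairs called together, 55 changed in the same and 25 in opposite directions. No expected share was set beside this, and some of these pairs share bases on opposite strands.

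Levels could not be assigned to a strand with certainty. The library kit marks strand and is known for reads that run against the RNA, while the counting used strand setting 1, which takes reads that run along the model. Of 49 pairs in which a model lies inside another on the opposite strand, with at least 50 counts each over the 6 libraries, the inner model had more reads per coding base in 41. The median ratio of inner to outer model was 1.86, and fold changes had the same sign in 38 of the 49 pairs. The sign count was not set against other pairs of models. Some of the pairs share an outer model, and some lie in the first 1 Mb of chromosome C, where the median log2 fold change was -0.52. The sign count therefore cannot show whether strands were mixed. Values here are thus counts of reads of a single orientation over a model, and the strand of the RNA behind them is uncertain. The pairs cover overlapping models only, so the other models were not tested for this. Among called models, 9 of the 330 higher and 6 of the 187 lower overlap another on the opposite strand, against 155 of all 5189 models. Without all such models, 332 higher and 197 lower models were called.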

How the data were processed

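The authors deposited raw read counts for 5189 gene models. Per the file headers, these are reads over coding parts counted with featureCounts 2.0.1 at strand setting 1, with fastp and STAR in the paths. Of 14 alignments in the command, 5 are not analysed here. Genome build and alignment settings were not given in the sources used here. The authors' deposited table of alpha against a/alpha cells holds a mean signal, log2 fold changes, their errors, a test score and p-values, and only its log2 fold change is quoted. The submitters' processing notes name DESeq2.

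For the tests, edgeR 4.0.16 (R 4.3.3) was run on all 9 libraries (TMM, filterByExpr, quasi-likelihood test, Benjamini-Hochberg at 0.05), which kept 5042 models. The 147 left out held 0.0051% of counts. The a libraries enter through the shared spread. Standard errors are the fold change over the root of F, which is approximate. The procedure was tested on simulated data with the same spread for every model. That simulation held no length trend, chromosome C shift or replicate effect, so it does not cover these. Set medians use log2 CPM with a prior count of 2.

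Named models passed the test, had groups that did not overlap, and were the 15 largest by fold, 5 by level and 5 by adjusted p in each direction, and the 3 longest runs (ties by median change). Members and lists were chosen with earlier results of these data known. The length classes and their trend, and the fit without a/alpha replicate 1 of 6 libraries, were chosen after seeing the data. Alternatives were other scalings, filters, tools (DESeq2 1.42.0), thresholds, model sets and leaving out each library.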

Additional observations from a re-analysis of the deposited data

How the results depend on the processing

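The count of 517 called models, 330 higher and 187 lower, moved over 1.5 times under several settings. DESeq2 called 831 (516 higher, 315 lower). The 6 libraries alone gave 920 (524 and 396), or 880 (515 and 365) without a/alpha replicate 1 as well. A test against a 1.2-fold change (glmTreat) gave 257 (164 and 93), and an adjusted p of 0.01 gave 180 (112 and 68), with 55 at least 2-fold lower in place of 86. Upper-quartile factors gave 290 lower models. With a replicate block 1552 were called (823 and 729), 152 of them at least 2-fold lower. Replicate numbers were not taken as pairing, since deviations of same-numbered alpha and a/alpha libraries correlated by -0.0059, -0.031 and 0.16. Deviations of a libraries were not compared with these, so a replicate effect that a libraries share was not tested. The correlations therefore do not settle whether the fit of all 9 libraries needed a replicate block. Leaving out each library gave 152 to 1172 called models, 89 to 657 higher and 63 to 515 lower. At least 2-fold, it gave 84 to 228 higher and 50 to 166 lower. No alternative called a model in the opposite direction to the 517. At chromosome ends, the difference of -0.012 lay between -0.038 (a/alpha replicate 1 left out) and 0.020 (a/alpha replicate 3 left out), with 0.011 when a/alpha replicate 2 was left out. The chromosome C difference ran from -0.69 to -0.41 and that of short models from 0.32 to 0.60 without 1 library. Named models kept their direction in all 1030 alternative values and lost the call in 88. The causes were not tested. The depth of a/alpha replicate 1 limits models under 10 CPM most.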
